A study of Fragaria vesca with 12 samples.

Results

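The comparison described here is between non-cold stored strawberries (NCS), which had stood for 2 days at 20°C with relative humidity held at 80%, and strawberries taken 2 h after harvest (AH). It was made on the libraries whose labels carry these conditions, 3 of NCS and 3 of AH, which is 6 of the 12 libraries of the series. The other 6 came from fruit that had spent 7 days at 1°C and then 1 day at 20°C, either in air (ACS, 3 libraries) or after 2 days under 18% CO2, 18% O2 and 64% N2 followed by 5 days in air (CCS, 3 libraries). All 4 conditions were ripe fruit of 'Mara des Bois', entered in the labels as Fragaria vesca. By the labels each library was made from total RNA of a pool of at least 50 strawberries. The paper also describes smaller batches of frozen berries, and which size holds for the libraries was not resolved. The ploidy of the cultivar was not examined, and if it is a polyploid garden strawberry, the value of each F. vesca gene model sums the reads of all gene copies that map to it. The fruit of a storage condition had shared a container, so p-values measured the spread between pools, and the condition and its container cannot be told apart. NCS and AH also differed in time after harvest, and no fruit held for the same time under another condition was among the libraries compared.

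A strawberry is a swollen receptacle that carries the achenes, which are the dry true fruits with a seed inside, and a green calyx. Ripening of this fruit does not depend on a burst of ethylene, yet detached berries at room temperature lose firmness, respire and become prone to mould within days. Jasmonate, which plants make from membrane lipids after wounding or attack, and ethylene are the hormones most often linked with such responses, and the wall of the receptacle cell is taken apart by pectinases, xyloglucan enzymes and expansins as the berry softens.

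The libraries held between 64.2 and 119.9 M reads, and 10 reads on a gene of median length corresponded to between 0.0339 and 0.0633 RPKM (reads per kilobase of gene, scaled to a common library size). Within NCS the libraries correlated at r = 0.995 to 0.996 over genes on the log2 scale. Within AH the values were 0.977 to 0.992, lowest between replicates 1 and 3. Of 34008 genes in the table, 16092 reached 0.5 RPKM in at least 3 of the 6 libraries and were tested with limma on log2(RPKM + 0.1). A gene was called changed at a Benjamini-Hochberg adjusted p of 0.05 or less with a log2 fold change (NCS over AH) of at least 1.5 in size. An exact permutation test of 3 libraries against 3 cannot go below p = 0.1.

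The fruit tissues were checked through genes that mark them. Achene genes (144 described as cupin, oleosin, seed storage or late embryogenesis abundant) summed to 8982 to 9608 RPKM in NCS, against 18756 to 21638 RPKM in AH. The narrower list of cupins and oil body proteins (56 genes) summed to 2262 to 2809 RPKM in NCS and 4728 to 9057 RPKM in AH. For late embryogenesis abundant proteins and dehydrins (36 genes) the sums were 1041 to 1155 RPKM in NCS and 2998 to 3666 RPKM in AH. A large part of the achene sum thus came from other genes, and whether those are particular to achenes was not tested. Green tissue genes (66 photosystem, light harvesting and Rubisco genes) summed to 77.7 to 79.3 RPKM in NCS and to 144 to 169 RPKM in AH. The 51 ripe receptacle genes were those described as enzymes of red colour, expansins, pectate lyases or polygalacturonases. Their sums were 4061 to 4227 RPKM in NCS and 4590 to 5403 RPKM in AH. The list of expansins (37 genes) summed to 1545 to 1666 RPKM in NCS and 2616 to 3066 RPKM in AH. The receptacle sums thus included a wall family that fell, and the other members were not summed separately. Among the enzymes of red colour, 2 that were picked after their values had been seen were abundant in both conditions. Their means were higher in NCS, against the direction of the receptacle sums. Flavanone 3-hydroxylase FvH4_1g11810 averaged 1278 RPKM in NCS and 939.9 RPKM in AH, and leucoanthocyanidin dioxygenase FvH4_5g01170 929 RPKM in NCS and 763 RPKM in AH. The summed marker transcripts of achenes, green parts and receptacle were thus all less abundant in NCS than in AH, without overlap between the libraries. Median log2 fold changes were -1.02 for achene, -1.06 for green tissue and -0.76 for receptacle genes. Among the members past the filter, 2 achene genes of 63 were higher and 21 lower, none of 40 green tissue genes was higher and 16 were lower, and 1 of 18 receptacle genes was higher and 5 were lower, by the limits given above. In whole fruit, fewer cells of a tissue and less RNA per cell cannot be told apart.

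**Figure D1:**
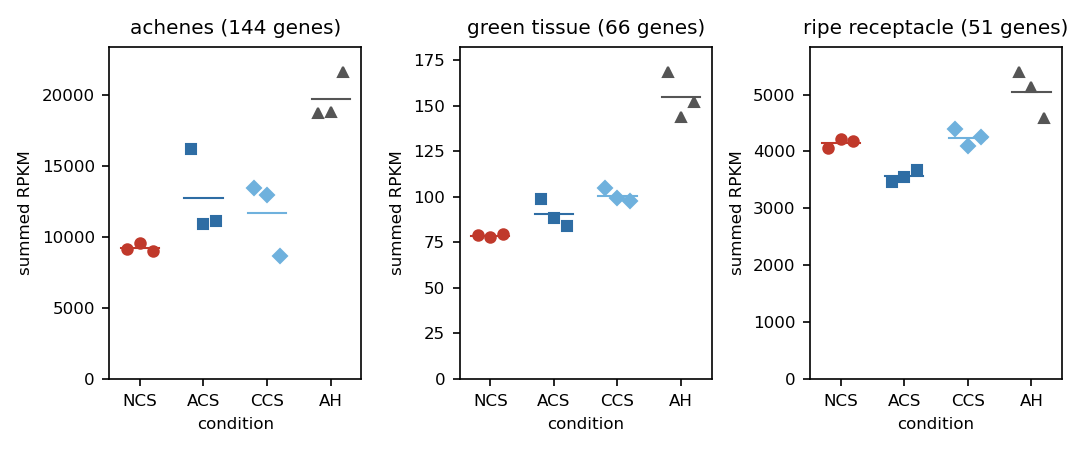
Summed RPKM of the marker genes of achenes (144 genes), green tissue (66) and ripe receptacle (51), with conditions along the horizontal axis, a point for each library and a line at the mean of the 3 libraries. In all 3 panels the NCS libraries lie below the AH libraries, and for achenes 1 ACS library lies above the others of its condition and 1 CCS library below.

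Between NCS and AH, 1021 genes were called, which is 6.34% of the genes tested. Of these, 641 were higher in NCS (3.98%) and 380 were lower (2.36%). Of the 641, 450 (70.2%) were also called higher in both ACS and CCS against AH. Of the 380, 98 (25.8%) were also called lower in both. Over all genes tested, 7.15% were higher and 1.4% lower in ACS, and 5.47% higher and 1.15% lower in CCS. These comparisons share the AH libraries, and counts for the cold-stored conditions are given below for some lists only. All of the 1021 called genes had NCS and AH libraries that did not overlap, against 51.5% of all genes tested. The median log2 fold change over all genes tested was -0.07. The description field of the table was used to form 54 lists, of which 3936 tested genes and 417 of the called genes were members, and 176 called genes had no description. Counts of members are set beside the 3.98% higher and 2.36% lower of all genes tested.

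**Figure D2:**
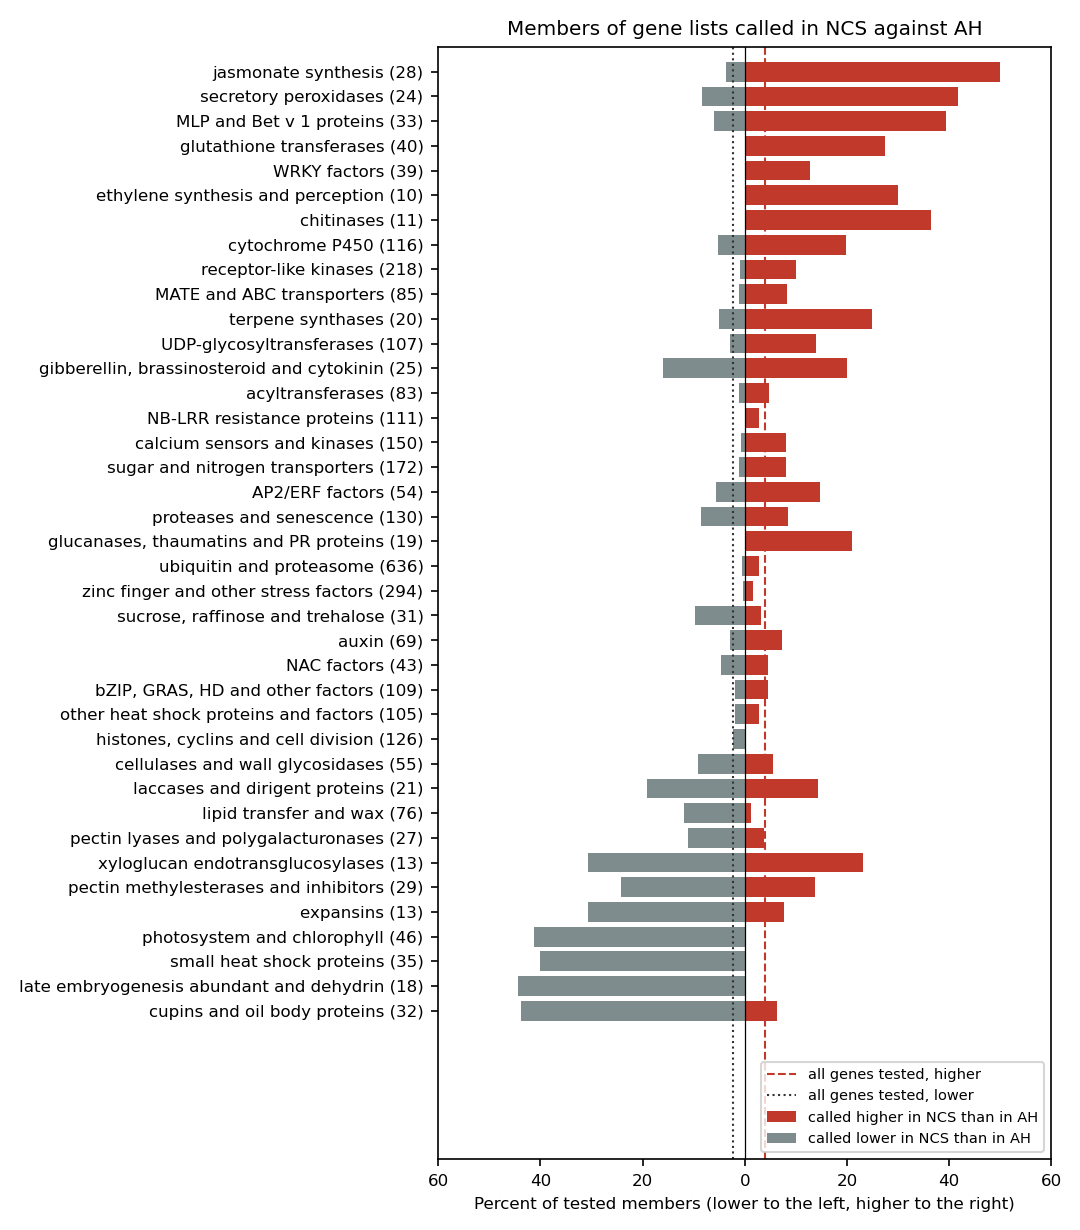
Percent of the tested members of each list that were called lower (to the left) or higher (to the right) in NCS than in AH, with the number of members tested in brackets, for lists with at least 10 tested and 3 called members. Dashed and dotted lines mark the 3.98% higher and 2.36% lower of all genes tested, and the lists are ordered by median log2 fold change, with jasmonate synthesis at the top and cupins and oil body proteins at the bottom.

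Genes of jasmonate synthesis were the list with the highest median. Of 28 tested members (39 in the table), 14 were higher and 1 was lower in NCS, with a median log2 fold change of 1.37. The route runs from lipoxygenase through allene oxide synthase and allene oxide cyclase to 12-oxophytodienoate reductase, and a methyltransferase then turns jasmonic acid into the volatile methyl jasmonate. Allene oxide synthase FvH4_5g16260 measured 23.6, 24.1 and 23.9 RPKM in NCS, against 1.07, 0.614 and 0.399 RPKM in AH (log2 fold change 5.0 ± 0.28 SE, adjusted p = 2.59e-05). 12-oxophytodienoate reductase 3 FvH4_1g08454, an enzyme that commits the precursor to jasmonic acid, measured 41.9, 38.6 and 36.6 RPKM in NCS and 1.25, 0.669 and 0.406 RPKM in AH (5.60 ± 0.33, adjusted p = 2.89e-05). In both genes AH replicate 1 was the highest of the harvest libraries, and it stayed far below every NCS library. The neighbouring copy FvH4_1g08453 also rose (6.01 ± 0.28), and such adjacent copies may share reads. The 14 higher members also included FvH4_5g32630, FvH4_5g32640, FvH4_5g32680, FvH4_5g32690 and FvH4_5g32710. Those genes lie close together by identifier and may share reads too, and their part in the route was not tested.

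At the last step, 3 genes described as jasmonic acid carboxyl methyltransferase were higher in NCS. FvH4_4g32960 measured 134, 142 and 136 RPKM in NCS, means of 137 RPKM in ACS and 131 RPKM in CCS, and 6.74, 7.36 and 7.17 RPKM in AH (log2 fold change 4.26 ± 0.08, adjusted p = 6.68e-07). The most abundant of them, FvH4_2g39441, measured 318, 337 and 332 RPKM in NCS and 94.0, 96.2 and 94.0 RPKM in AH (1.79 ± 0.07, adjusted p = 7.17e-06). This gene did not follow the other copy across storage. It measured 72.0, 85.9 and 86.2 RPKM in ACS and 27.9, 27.4 and 31.3 RPKM in CCS, so that all NCS libraries were the highest of the 12, with log2 differences of 2.02 from ACS and 3.51 from CCS (limma, adjusted p = 1.23e-05 and 1.29e-06). Against AH it was called lower in CCS (-1.71) and was not called in ACS (-0.22). Its neighbour FvH4_2g39450 was also highest in NCS, with means of 8.31 RPKM in NCS, 3.17 RPKM in ACS, 1.96 RPKM in CCS and 2.34 RPKM in AH, and it was among the genes called in NCS and not in the cold-stored conditions.

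The primers with which the study followed FvH4_2g39441 by quantitative PCR are printed because it was the most abundant of these methyltransferases and was higher in NCS than in every other condition. The identifier places the gene on chromosome 2 of the F. vesca v4.0.a2 annotation.
FvH4_2g39441 forward: tgcgtactcacttcaattccac
FvH4_2g39441 reverse: aaccatgctcatcaatgcaa

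The member of the list that fell was a lipoxygenase. Lipoxygenases add oxygen to polyunsaturated fatty acids, and only some of them stand at the start of the route. Whether the genes described as lipoxygenase 1 act in it was not tested. Lipoxygenase 1 FvH4_6g06100 measured 1.37, 1.44 and 1.25 RPKM in NCS and 4.89, 4.44 and 4.57 RPKM in AH (log2 fold change -1.71 ± 0.09), while its neighbour FvH4_6g06090 measured 21.1, 23.1 and 21.1 RPKM in NCS and 7.31, 6.57 and 5.13 RPKM in AH (1.78). Allene oxide cyclase 3 FvH4_4g28021 averaged 104 RPKM in NCS and 68.5 RPKM in AH and was not called. None of the 6 tested jasmonate signalling genes was called (median 0.07), with jasmonate-zim-domain protein FvH4_1g09690, a repressor of the response, at a mean of 26.1 RPKM in NCS and 20.4 RPKM in AH. The synthesis list also had 11 members higher and 1 lower of 28 in ACS against AH, and 7 higher and 2 lower of 28 in CCS against AH. Over all genes tested, 8.55% were called in ACS (7.15% higher, 1.4% lower) and 6.62% in CCS (5.47% higher, 1.15% lower). The 3 comparisons share the AH libraries.

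Ethylene is made from 1-aminocyclopropane-1-carboxylic acid (ACC), which ACC synthase forms and the ethylene-forming enzyme oxidises. Of 10 tested genes of ethylene synthesis and perception, 3 were higher and none was lower in NCS (median log2 fold change 0.48), and these were 2 ACC synthases and 1 ethylene-forming enzyme. ACC synthase 1 FvH4_7g15310 measured 24.9, 24.0 and 24.5 RPKM in NCS and 1.11, 0.576 and 0.545 RPKM in AH (4.93 ± 0.24, adjusted p = 1.31e-05). The ethylene-forming enzyme FvH4_6g42090 averaged 1566 ± 37.0 RPKM in NCS and 246 ± 29.8 RPKM in AH (SD, n = 3 each; 2.68 ± 0.10 SE), which placed it among the abundant transcripts of the stored fruit. Among 54 tested AP2/ERF factors, the family that includes the ethylene response factors, 8 were higher and 3 were lower. Ethylene response factor 1 FvH4_6g02270 measured 1.23, 1.41 and 1.85 RPKM in NCS and had no read in the 3 AH libraries, at least 104-fold higher against a floor of 3 reads over the AH group. Integrase-type factor FvH4_4g03460 measured 2.25, 2.16 and 1.97 RPKM in NCS and likewise had no read in AH, at least 98.4-fold higher.

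**Figure D3:**
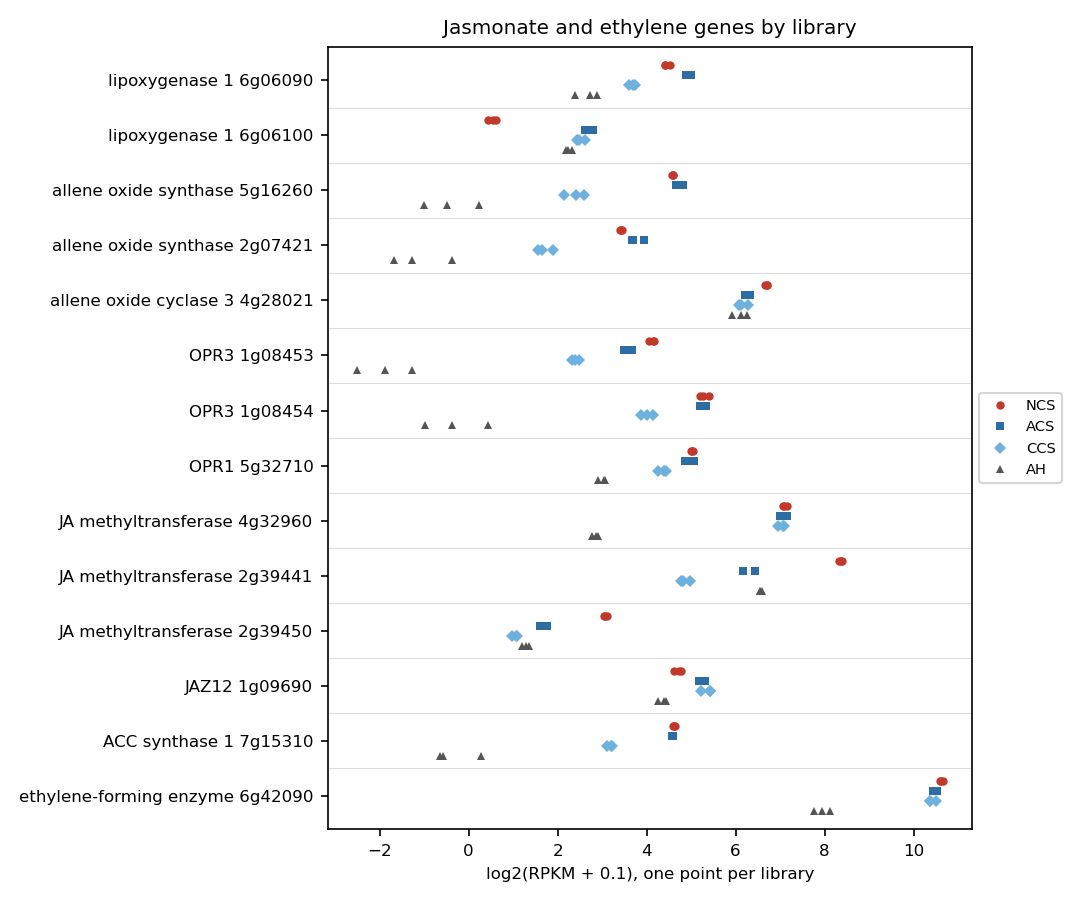
Levels of 14 jasmonate and ethylene genes as log2(RPKM + 0.1) along the horizontal axis, a point for each library, with NCS, ACS, CCS and AH drawn as separate rows within each gene. The 3 NCS points of methyltransferase 2g39441 lie to the right of those of all other conditions, whereas for methyltransferase 4g32960 the stored conditions lie together, away from AH.

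Other hormone genes moved in both directions. Gibberellin 2-oxidases inactivate gibberellin, and FvH4_4g20730 measured 4.16, 3.73 and 3.78 RPKM in NCS and 0.122, 0.174 and 0.105 RPKM in AH (log2 fold change 4.10 ± 0.12). Among 25 tested gibberellin, brassinosteroid and cytokinin genes 5 were higher and 4 were lower, and cytokinin oxidase 7 FvH4_6g04910 was among those that fell (-2.04 ± 0.28). An auxin-responsive GH3 protein, a family whose enzymes couple hormones to amino acids, rose to 3.01, 2.97 and 2.82 RPKM in NCS, against 0, 0.00997 and 0.0238 RPKM in AH (FvH4_1g16980, 4.77 ± 0.10), whereas a putative indole-3-acetic acid-amido synthetase of the same kind fell (FvH4_2g25330, -2.60 ± 0.24). Of 69 auxin genes 5 were higher and 2 were lower. In the abscisic acid list of 25, 1 gene was higher, 1 was lower and 23 were not called (median 0.07). The 8% called lay near the 6.34% of all genes tested. Receptor PYR1-like 11 FvH4_4g18951 rose (4.85 ± 0.31) and the dioxygenase FvH4_4g34690, described as nine-cis-epoxycarotenoid dioxygenase 4, fell (-1.99 ± 0.14).

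Secretory peroxidases, which use hydrogen peroxide in the cell wall, had 10 members higher and 2 lower of 24 tested (72 in the table; median log2 fold change 1.24). FvH4_3g02700 measured 110, 119 and 114 RPKM in NCS, means of 58.5 RPKM in ACS and 40.3 RPKM in CCS, and 0.760, 0.621 and 0.622 RPKM in AH (7.23 ± 0.10, adjusted p = 3.73e-07). No library of another condition reached the level of any NCS library in this gene. The list as a whole was not highest in NCS. In ACS against AH 13 of 24 were higher and 1 lower, and in CCS against AH 10 of 24 were higher and 1 lower. Its summed level was 347 to 352 RPKM in NCS, 377 to 403 RPKM in ACS and 283 to 284 RPKM in CCS. Most peroxidases called in NCS against AH were scarce transcripts, since 7 of the 10 that rose there averaged under 6 RPKM in NCS. FvH4_6g50150 was the more abundant of those that fell, with 9.62, 10.2 and 9.79 RPKM in NCS and 39.3, 33.9 and 28.6 RPKM in AH (-1.76 ± 0.12).

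Glutathione transferases join glutathione to reactive compounds, and 11 of 40 tested members rose while none fell (median log2 fold change 0.59). TAU 8 FvH4_7g07360 measured 14.5, 12.7 and 12.7 RPKM in NCS and 1.14, 0.784 and 1.02 RPKM in AH (3.64 ± 0.14). PHI 9 FvH4_6g38760 measured 84.2, 79.8 and 78.7 RPKM in NCS and 8.29, 7.91 and 4.43 RPKM in AH (3.59 ± 0.23). The summed level of the whole list was 2898 to 3048 RPKM in NCS and 1439.8 to 1961 RPKM in AH, without overlap. By contrast, of 100 tested genes of glutathione, ascorbate and thioredoxin turnover none was higher and 1 was lower (median -0.20), and their sums of 4613 to 4684 RPKM in NCS lay within the 3883 to 5047 RPKM of AH. Alternative oxidase 2 FvH4_4g05930, a mitochondrial bypass of the respiratory chain, was the called member among 11 tested catalase, superoxide dismutase and oxidase genes (2.59 ± 0.24).

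Defence proteins were examined in 3 lists. In the list of MLP and Bet v 1 proteins, small ligand-binding proteins that include strawberry allergens and pathogenesis-related proteins, 13 of 33 tested members were higher and 2 were lower (median log2 fold change 0.67), and their summed level was 5799 to 5988 RPKM in NCS and 1979 to 2842 RPKM in AH. The MLP423-like protein FvH4_4g19050 averaged 2011 ± 66.1 RPKM in NCS and 197 ± 40.2 RPKM in AH (SD, n = 3 each), a log2 fold change of 3.37 ± 0.14 SE. AH replicate 1, with 244 RPKM, was the highest harvest library of this gene. Several copies of this family lie side by side on the chromosome and may share reads. Of 11 tested chitinases 4 rose, none fell and 7 were not called (median 0.47), and among those that rose was an EP3-3 chitinase homologue with 37.7, 40.2 and 35.8 RPKM in NCS and 2.61, 2.11 and 1.48 RPKM in AH (FvH4_2g31570, 4.17 ± 0.19). Chitinases and glucanases attack fungal walls. In the list of glucanases, thaumatins and pathogenesis-related proteins 4 of 19 rose, none fell and 15 were not called (median -0.02), and pathogenesis-related 4 FvH4_3g26010 measured 95.8, 104 and 96.9 RPKM in NCS and 9.73, 4.40 and 4.12 RPKM in AH (4.11 ± 0.31).

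Polygalacturonase inhibiting protein 1 FvH4_6g22790, which blocks the pectinases of fungi, measured 345, 366 and 338 RPKM in NCS and 22.1, 21.5 and 20.3 RPKM in AH (log2 fold change 4.03 ± 0.08, adjusted p = 8.96e-07). An MLO membrane protein, of the family whose loss protects barley from mildew, measured 14.6, 15.2 and 14.2 RPKM in NCS and 0.00536, 0.0117 and 0.0223 RPKM in AH (FvH4_6g15610, 7.03 ± 0.09), where the 3 AH libraries held 16 reads in all. Ferulic acid 5-hydroxylase 1 FvH4_1g12210, an enzyme of syringyl lignin, measured 39.5, 43.1 and 41.8 RPKM in NCS and 0.696, 0.732 and 0.914 RPKM in AH (5.57 ± 0.11), and it was 1 of the 2 called genes among 24 tested phenylpropanoid and lignin genes. FvH4_1g16790, which the paper names as CAD, an enzyme of the last step to lignin, was also called higher. That gene was counted in the list of glycolysis and fermentation, with 2 higher and none lower of 61 tested. Laccase 7 FvH4_6g12430 rose as well (3.15 ± 0.19), in a list of 21 laccases and dirigent proteins with 3 higher and 4 lower.

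Enzymes of secondary metabolism rose more often than they fell. Of 116 tested cytochrome P450 genes 23 were higher and 6 lower, of 107 UDP-glycosyltransferases 15 were higher and 3 lower, and of 20 terpene synthases 5 were higher and 1 lower. The glycosyltransferase FvH4_6g39870 measured 77.8, 77.2 and 75.5 RPKM in NCS and 6.83, 5.87 and 5.60 RPKM in AH (log2 fold change 3.64 ± 0.09). Terpene synthases make volatile and defence terpenoids, and terpene synthase 21 FvH4_5g35711 measured 2.14, 2.45 and 2.1 RPKM in NCS, with 699 reads over the 3 libraries, against 2 reads over the 3 AH libraries. FAD-binding berberine enzymes, oxidases of the cell wall and vacuole, were looked at after their values were seen. Of 11 tested, 7 were higher and none lower (median 2.63), and FvH4_3g11300 measured 27.5, 29.2 and 26.8 RPKM in NCS against 0.392, 0.585 and 0.253 RPKM in AH (5.83 ± 0.23). The flavonoid list had 2 of 12 members higher. These were a chalcone and stilbene synthase relative FvH4_2g28040 at 4.40, 4.89 and 4.79 RPKM in NCS and 0.106, 0.0336 and 0.0412 RPKM in AH, and flavonol synthase 1 FvH4_2g26440 (1.60 ± 0.11).

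Export and uptake carriers showed a similar balance. MATE and ABC transporters, which move metabolites and toxins out of the cytosol, had 7 of 85 tested members higher and 1 lower, and the MATE protein FvH4_7g01040 measured 115, 121 and 121 RPKM in NCS and 5.82, 8.55 and 8.44 RPKM in AH (log2 fold change 3.97 ± 0.16). For sugar and nitrogen transporters the counts were 14 higher and 2 lower of 172.

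Receptors and signalling genes were also counted. Of 218 tested receptor-like kinases 22 were higher and 2 lower, of 150 calcium sensors and kinases 12 were higher and 1 lower, of 39 WRKY factors 5 were higher and none lower, and of 111 NB-LRR resistance proteins 3 were higher and none lower. The NB-LRR share of 2.70% higher lay below the 3.98% of all genes tested. In ACS against AH the numbers higher were 62 of 243 receptor-like kinases, 32 of 161 calcium genes, 18 of 43 WRKY factors and 30 of 154 NB-LRR genes. In CCS against AH they were 45 of 238 receptor-like kinases, 29 of 159 calcium genes, 11 of 41 WRKY factors and 24 of 142 NB-LRR genes, and AH was shared by these comparisons. A CC-NBS-LRR gene measured 2.76, 2.59 and 3.02 RPKM in NCS, means of 11.6 RPKM in ACS and 11.4 RPKM in CCS, and 0.107, 0.0387 and 0.0831 RPKM in AH (FvH4_5g32830, log2 fold change NCS over AH 4.05 ± 0.16). WRKY factor FvH4_3g23150 was highest in NCS, with 6.49, 7.86 and 6.95 RPKM, a mean of 3.65 RPKM in ACS, 2.46 RPKM in CCS and 0.687, 0.865 and 1.09 RPKM in AH (2.89 ± 0.16). The receptor-like kinase FvH4_4g23092, described as somatic embryogenesis receptor-like kinase 1, measured 35.6, 35.0 and 36.0 RPKM in NCS and 0.325, 0.384 and 0.401 RPKM in AH (6.25 ± 0.09). Glutamate receptor channels, which carry wound-related calcium signals in Arabidopsis, were also taken up after their values were seen, and 8 of 15 tested were higher and none lower (median 1.57). The most abundant, FvH4_3g32960, averaged 25.9 RPKM in NCS, 49.7 RPKM in ACS, 30.1 RPKM in CCS and 4.92 RPKM in AH.

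Small heat shock proteins, chaperones that hold unfolding proteins, fell in NCS. Of 35 tested members (48 in the table) 14 were lower and none was higher, with a median log2 fold change of -1.10. Their summed level was 520, 540 and 509 RPKM in NCS and 2144, 1829 and 1619 RPKM in AH, which did not overlap. The 17.6 kDa class II protein FvH4_2g31371 measured 47.3, 44.4 and 43.1 RPKM in NCS, means of 54.7 RPKM in ACS and 40.5 RPKM in CCS, and 759, 607 and 492 RPKM in AH (-3.76 ± 0.16, adjusted p = 8.38e-06). The HSP20-like gene FvH4_7g23650 measured 10.2, 9.57 and 10 RPKM in NCS, means of 48.1 RPKM in ACS and 34 RPKM in CCS, and 296, 216 and 176 RPKM in AH (-4.48 ± 0.18). All stored conditions thus lay below AH in these 2 genes. The list had 9 members lower of 35 in ACS against AH and 10 lower of 35 in CCS against AH, and none higher in either. Other heat shock proteins and factors did not share this direction, with 3 higher and 2 lower of 105 tested, and heat shock transcription factor B3 FvH4_6g24120 rose (2.40 ± 0.15). Small heat shock genes are also transcribed in maturing seeds, and the achene sums fell beside them as given above; the part of the achenes in this result was not tested.

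**Figure D4:**
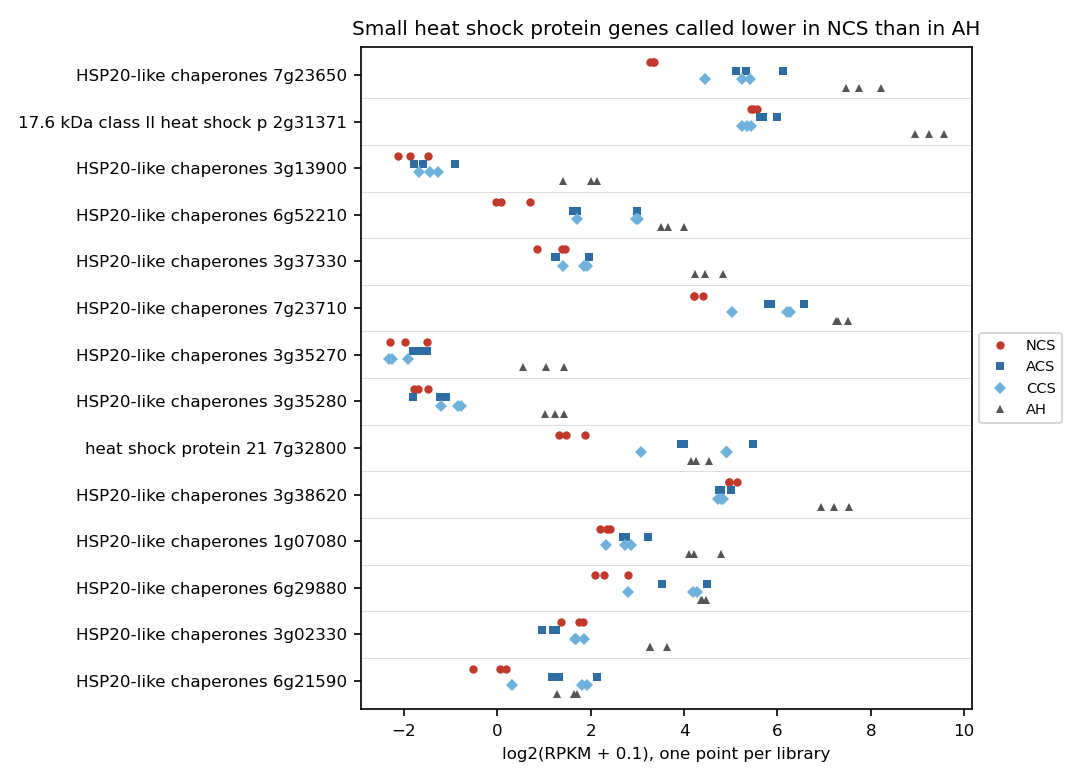
Levels of the 14 small heat shock protein genes called lower in NCS than in AH, as log2(RPKM + 0.1) along the horizontal axis, a point for each library, with NCS, ACS, CCS and AH as separate rows within each gene. In every gene the NCS points lie to the left of the AH points, and in some the ACS and CCS points spread between the 2.

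Photosystem and chlorophyll genes also fell. Of 46 tested (90 in the table) 19 were lower and none was higher, with a median log2 fold change of -1.07, and the summed level was 88.3 to 92.2 RPKM in NCS and 178 to 212 RPKM in AH. All were scarce in this ripe fruit. Photosystem II subunit Q-2 FvH4_3g02920 measured 0.360, 0.585 and 0.287 RPKM in NCS and 4.18, 3.15 and 3.05 RPKM in AH (-2.83 ± 0.23), and a light harvesting gene of photosystem I, FvH4_4g23750, named after its values were seen, averaged 0.343 RPKM in NCS and 1.86 RPKM in AH. In ACS against AH 9 of 49 were lower and in CCS against AH 6 of 49. The amount of green tissue in each pool was not recorded, and its part in this result was not tested.

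Genes of seed storage and seed drying had the lowest medians. Of 32 tested cupins and oil body proteins 14 were lower and 2 higher (median log2 fold change -1.44), and of 18 tested late embryogenesis abundant proteins and dehydrins 8 were lower and none higher (-1.39). Cupins include the storage globulins of seeds, oleosins coat their oil bodies, and dehydrins protect drying cells. The cupin FvH4_2g21400 measured 54.2, 77.9 and 55.4 RPKM in NCS and 501, 501 and 1041 RPKM in AH (-3.37 ± 0.31, adjusted p = 0.000217), and the cupin FvH4_3g19080 measured 29.3, 29.7 and 28.2 RPKM in NCS and 189, 242 and 714 RPKM in AH (-3.46 ± 0.46). AH replicate 3 was the highest harvest library in both. Without it their log2 fold changes were -3.02 for FvH4_2g21400 and -2.88 for FvH4_3g19080, and 13 cupins and oil body proteins and 6 late embryogenesis genes were called lower. Outside the storage proteins, delay of germination 1 FvH4_3g07640, a seed dormancy gene of Arabidopsis, measured 4.84, 6.20 and 3.72 RPKM in NCS and 24.1, 21.7 and 32.0 RPKM in AH (-2.38 ± 0.22). The part of the achenes per pool in these values was not tested.

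Genes of the cell wall moved in both directions, family by family. Xyloglucan endotransglucosylases, which cut and rejoin xyloglucan, had 3 members higher and 4 lower of 13 tested. XTH4 FvH4_4g22090 measured 2.85, 2.62 and 2.65 RPKM in NCS, means of 12.7 RPKM in ACS and 25.3 RPKM in CCS, and 68.9, 63.4 and 55.4 RPKM in AH (log2 fold change -4.48 ± 0.10, adjusted p = 1.36e-06). XTH16 FvH4_6g38160 rose, with 1.62, 1.40 and 1.40 RPKM in NCS, means of 19.6 RPKM in ACS and 17.6 RPKM in CCS, and 0.141, 0.352 and 0.395 RPKM in AH (2.05 ± 0.27). Its level in the cold-stored fruit lay above that in NCS. The abundant xyloglucan endotransglycosylase 6 FvH4_4g06700 measured 395, 396 and 381 RPKM in NCS and 143, 124 and 115 RPKM in AH (1.63 ± 0.10). Because of this gene the summed level of the family was higher in NCS, at 526 to 542 RPKM, than in AH, at 394 to 396 RPKM, while its median log2 fold change was -0.46.

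Expansins loosen the wall without cutting it, and 1 of 13 tested was higher and 4 lower (median log2 fold change -0.89). Expansin-like B1 FvH4_5g21120 measured 83.9, 75.3 and 84.0 RPKM in NCS and 12.5, 9.39 and 8.50 RPKM in AH (3.00 ± 0.15). Of the pectin methylesterases and their inhibitors, which set how readily pectin is cut, 4 of 29 were higher and 7 lower, and their summed level was 2199 to 2277 RPKM in NCS and 3676 to 4496 RPKM in AH. Pectin methylesterase 3 FvH4_6g35830, named after its values were seen, measured 42.9, 45.3 and 45.0 RPKM in NCS and 193, 198 and 179 RPKM in AH (-2.09 ± 0.08). Polygalacturonase 2 FvH4_4g34470, which cuts pectin chains, measured 59.8, 64.2 and 59.7 RPKM in NCS and 227, 251 and 232 RPKM in AH (-1.95 ± 0.08). Among 55 cellulases and wall glycosidases 3 were higher and 5 lower, and beta-xylosidase 1 FvH4_4g19350 was among those that fell (-2.62 ± 0.12).

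Proteases divided evenly, with 11 of 130 higher and 11 lower. The serine carboxypeptidase FvH4_3g30360 measured 26.3, 28.3 and 28.0 RPKM in NCS, means of 4.57 RPKM in ACS and 4.06 RPKM in CCS, and 0.469, 0.572 and 0.590 RPKM in AH (log2 fold change 5.43 ± 0.10, adjusted p = 6.68e-07). Subtilisins, serine proteases of the wall space, had 6 of 20 lower and none higher, a family taken up after its values were seen. Of 31 tested genes of sucrose, raffinose and trehalose metabolism 1 was higher and 3 lower, all of them in the synthesis of raffinose sugars. Galactinol synthase 2 FvH4_4g20790 rose (2.08 ± 0.16). Galactinol synthase 1 FvH4_6g07920 and a raffinose synthase, FvH4_5g05860, fell (-2.61 ± 0.35 and -1.57 ± 0.25), as did a further gene described as galactinol synthase 2, FvH4_6g07930 (-2.60). FvH4_5g05860 measured 2.90, 3.57 and 5.65 RPKM in AH, 7.74, 3.91 and 3.70 RPKM in ACS, and 6.61, 5.82 and 1.83 RPKM in CCS. In it and in FvH4_6g07920, AH replicate 3 and ACS replicate 1 were the highest and CCS replicate 3 the lowest library of their condition. Seed genes described below showed the same pattern, and the part of the achenes in these 2 genes was not tested.

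Basic cell machinery had few calls. None of 294 tested ribosomal protein genes and 3 of 126 histone, cyclin and cell division genes were called, these being tubulins that fell, with FvH4_2g38400 at 6.33, 6.30 and 5.94 RPKM in NCS and 49.3, 50.0 and 44.3 RPKM in AH (log2 fold change -2.93 ± 0.08). Beside the -0.07 of all genes tested, the ribosomal list had a median of -0.25. The actin FvH4_7g22410, a reference gene of the study's quantitative PCR, measured 14.4, 14.4 and 14.2 RPKM in NCS and 27.9, 25.5 and 24.0 RPKM in AH, which did not overlap, and was not called (-0.84 ± 0.08).

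Genes called in NCS but not in the cold-stored conditions were sought next. By calls alone 300 genes were called in NCS against AH and in neither ACS nor CCS against AH, 83 of them higher and 217 lower. A call in 1 comparison and none in another does not show a difference, so each gene was also required to differ between NCS and ACS and between NCS and CCS (limma, adjusted p of 0.05 or less, log2 difference of at least 1 in the same direction as against AH). Against ACS 3.33% of all genes tested were called in NCS (0.226% higher, 3.1% lower), and against CCS 3.73% (0.677% higher, 3.05% lower), at the limits used for AH. The requirement left 133 genes, 0.826% of those tested, of which 28 were higher (0.174%) and 105 lower (0.652%). Of the 28, 15 were below the filter in a comparison of a cold-stored condition with AH and could not be called there. All of the 105 were tested there. A gene without a call in cold-stored fruit could still have changed by less than the fold required. Of the 28 higher genes 8 also had an adjusted p of 0.05 or less in the same direction in ACS against AH and 4 in CCS against AH, and of the 105 lower genes 19 had one in ACS and 15 in CCS. The AH libraries are shared by these comparisons.

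Among the 28 higher genes, 19 had a description. The peroxidase FvH4_3g40160 measured 1.56, 1.60 and 1.60 RPKM in NCS, 0.456, 0.621 and 0.354 RPKM in ACS, 0.0426, 0.0731 and 0.152 RPKM in CCS, and 0, 0.0402 and 0 RPKM in AH. It passed the filter through its NCS libraries alone and was below it in both comparisons of cold-stored fruit with AH, so its place in the group is a description. The study had primers for this gene, which are printed as it had the highest log2 fold change of the group (3.91); it lies on chromosome 3 by its identifier.
FvH4_3g40160 forward: aaacaaaactgcccacgaac
FvH4_3g40160 reverse: gtcacttccatcgcctttg

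More abundant members of the group were an allergen-like protein, a transcription factor and a detoxifying enzyme. The MLP423-like protein FvH4_4g19010 measured 122, 128 and 123 RPKM in NCS, against means of 28.5 RPKM in ACS and 33.8 RPKM in CCS and 18.6, 14.2 and 14.3 RPKM in AH (log2 fold change 2.99 ± 0.12). The leucine-zipper factor bZIP70 FvH4_6g20610 measured 15.9, 16.8 and 16.8 RPKM in NCS, against means of 4.79 RPKM in ACS and 4.16 RPKM in CCS and 2.84, 2.54 and 2.28 RPKM in AH (2.65 ± 0.10). Glutathione transferase TAU 19 FvH4_3g16250 was the most abundant of these named genes, with 817, 783 and 817 RPKM in NCS, means of 391 RPKM in ACS and 307 RPKM in CCS, and 306, 265 and 248 RPKM in AH (1.57 ± 0.10). In each of the 3 genes all NCS libraries exceeded every other library, and the cold-stored means lay above that of AH. In smaller measure FvH4_6g20610 was also higher than AH in ACS (0.89) and CCS (0.69), as was FvH4_4g19010 (0.87 in ACS, 1.11 in CCS), all with adjusted p of 0.05 or less by limma. FvH4_3g16250 was likewise higher than AH in ACS (0.52, limma adjusted p = 0.0054), and in CCS its log2 fold change was 0.18 (adjusted p = 0.21). Gibberellin 2-oxidase FvH4_3g05530 averaged 3.61 RPKM in NCS, 1.40 RPKM in ACS, 0.736 RPKM in CCS and 0.453 RPKM in AH, and its log2 fold change of 1.43 in ACS fell just short of a call.

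Further members ranged from scarce to abundant outside NCS. The alpha/beta-hydrolase FvH4_2g22990 measured 0.691, 0.575 and 0.589 RPKM in NCS, with means of 0.00272 RPKM in ACS and 0.00924 RPKM in CCS. It had 257 reads in NCS and none in AH, at least 109-fold higher against a floor of 3 reads over the AH group. Like the peroxidase FvH4_3g40160, it passed the filter through its NCS libraries alone and was not tested in cold-stored fruit against AH. Its place in the group is therefore a description too. NmrA-like regulators, relatives of a fungal regulator of nitrogen use, gave 2 of the 28. Of these FvH4_2g09120 measured 102 RPKM in each NCS library, means of 28.8 RPKM in ACS and 35.2 RPKM in CCS, and 33.8, 34.2 and 32.5 RPKM in AH (log2 fold change 1.60 ± 0.07). The methyltransferase FvH4_2g09310, a neighbour by its identifier, varied widely, with 21.4, 9.98 and 14.7 RPKM in NCS and 2.89, 9.64 and 2.81 RPKM in AH (1.75 ± 0.51, adjusted p = 0.0361).

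Among the 105 lower genes, 86 had a description, and several acted on the wall. A gene of the pectin methylesterase inhibitor superfamily, FvH4_7g27800, measured 2.30, 2.29 and 2.85 RPKM in NCS, 32.6, 38.4 and 36.7 RPKM in ACS, 21.1, 22.6 and 21.7 RPKM in CCS, and 26.8, 20.8 and 20.8 RPKM in AH (log2 fold change -3.15 ± 0.14, adjusted p = 9.91e-06). Beta-galactosidase 5 FvH4_2g39200 averaged 3.70 RPKM in NCS, 9.70 RPKM in ACS, 11.2 RPKM in CCS and 20.8 RPKM in AH (-2.47 ± 0.10), and it was also lower than AH in ACS (-1.09, limma adjusted p = 0.000143) and in CCS (-0.89, adjusted p = 0.00035), short of a call. Expansin A4 FvH4_3g36410 measured 0.577, 0.513 and 0.715 RPKM in NCS, 2.75, 3.11 and 3.05 RPKM in ACS, 8.37, 8.47 and 7.57 RPKM in CCS, and 4.19, 4.18 and 3.68 RPKM in AH (-2.56 ± 0.12). Its level in CCS exceeded that in AH, and the NCS libraries were the lowest of the 12. Its primers are given as those of a wall gene that was lowest in NCS, on chromosome 3 by its identifier.
FvH4_3g36410 forward: ccaggactggctggatgag
FvH4_3g36410 reverse: ttctttccggtgaaagtctga

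Further lower genes were not of the wall. A cysteine proteinase measured 22, 20.5 and 19.6 RPKM in NCS, means of 111 RPKM in ACS and 191 RPKM in CCS, and 137, 140 and 125 RPKM in AH (FvH4_3g07970, log2 fold change -2.69 ± 0.09). Its near neighbour by identifier, the cystatin FvH4_3g07950, of a family that inhibits such proteinases, measured 5.08, 5.36 and 3.42 RPKM in NCS, means of 34.2 RPKM in ACS and 34.9 RPKM in CCS, and 44.1, 24.8 and 48.7 RPKM in AH (-3.03 ± 0.29). In the cystatin, ACS replicate 1 (52.9 RPKM) was the highest ACS library and CCS replicate 3 (13.3 RPKM) the lowest CCS library. Seed genes described below showed this pattern and the proteinase did not. The part of the achenes in the cystatin values was not tested. The P450 gene FvH4_6g34950 averaged 1.02 RPKM in NCS, 4.80 RPKM in ACS, 9.0 RPKM in CCS and 6.56 RPKM in AH (-2.58 ± 0.13). In all 3 genes the NCS libraries were below those of every other condition.

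Seed genes were a further group. Of the 105, 18 belonged to the lists of cupins, oil body proteins, late embryogenesis abundant proteins and dehydrins, of which 50 genes were tested and 22 called lower, and none of the 28 higher genes belonged to them. Oleosin 1 FvH4_7g26900 measured 68.6, 80.8 and 62.5 RPKM in NCS, 406, 193 and 197 RPKM in ACS, 322, 302 and 107 RPKM in CCS, and 238, 250 and 367 RPKM in AH (log2 fold change -1.99 ± 0.19). Dehydrin xero 1 FvH4_1g12550 measured 142, 162 and 141 RPKM in NCS, 607, 344 and 330 RPKM in ACS, 555, 537 and 187 RPKM in CCS, and 505, 502 and 665 RPKM in AH (-1.90 ± 0.13). Outside the seed lists, heat shock protein 21 FvH4_7g32800, a plastid chaperone, measured 2.39, 3.60 and 2.67 RPKM in NCS, 44.5, 15.1 and 16.0 RPKM in ACS, 30.3, 29.5 and 8.37 RPKM in CCS, and 17.5, 19.1 and 23.2 RPKM in AH (-2.76 ± 0.17). In these genes ACS replicate 1 was the highest ACS library and CCS replicate 3 the lowest CCS library.

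**Figure D5:**
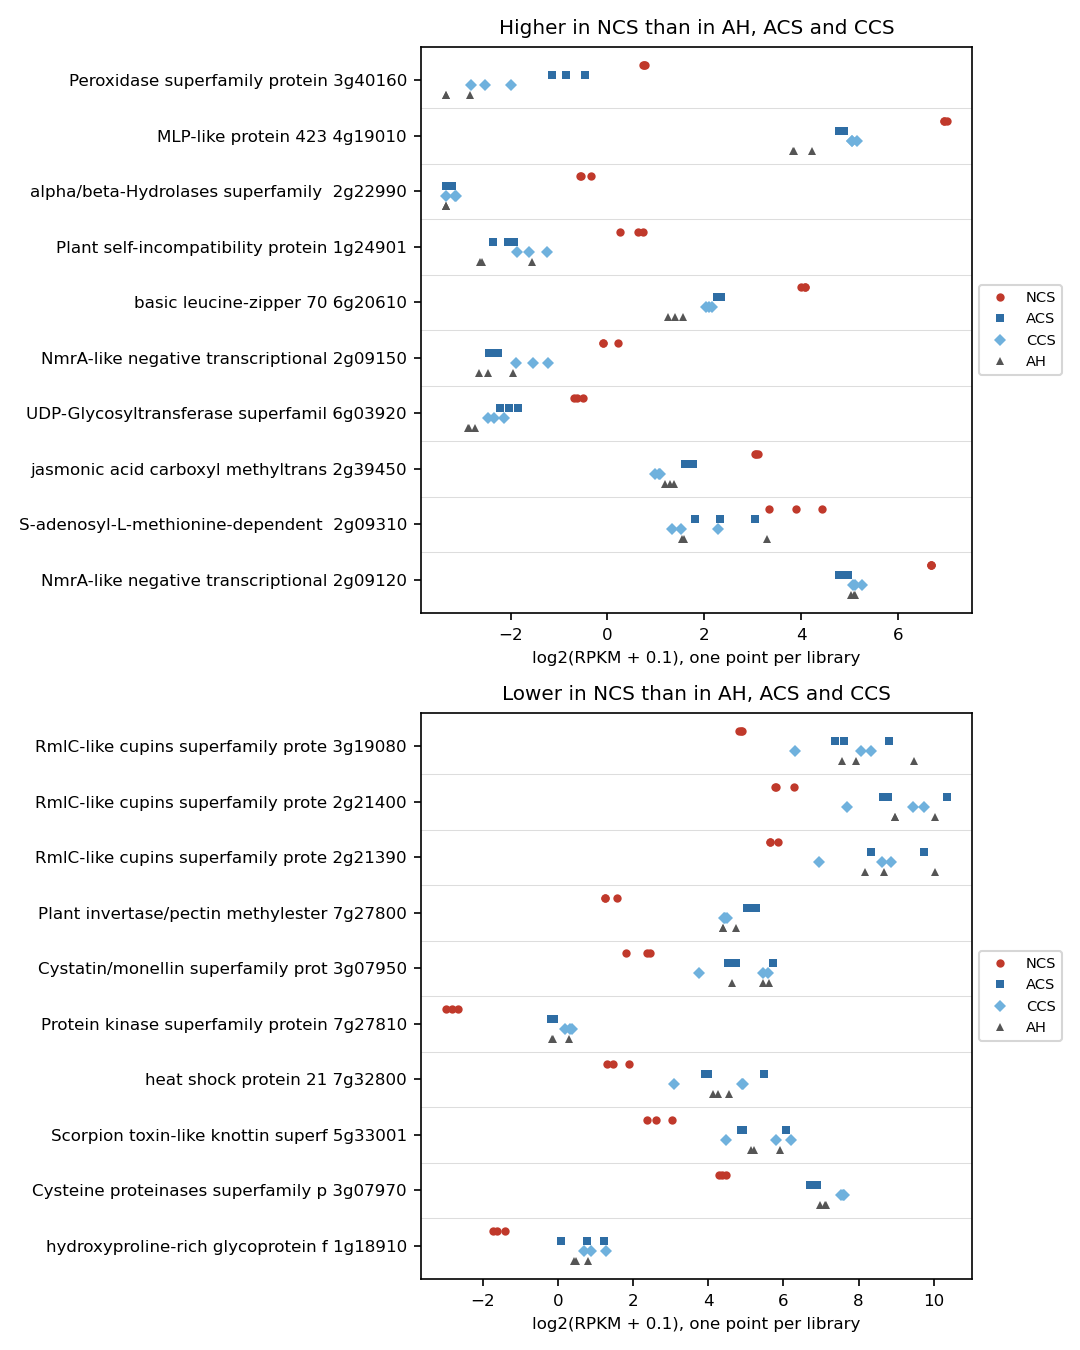
Levels of the 10 higher (upper panel) and 10 lower (lower panel) described genes that differed most between NCS and the nearer cold-stored condition, as log2(RPKM + 0.1) along the horizontal axis, a point for each library, with NCS, ACS, CCS and AH as separate rows within each gene. NCS points lie to the right of the other conditions in the upper panel, except in methyltransferase 2g09310, where single NCS and AH libraries lie close together, and to the left in the lower panel, where the ACS and CCS points of the cupins spread widely.

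This library pattern was counted over genes. ACS replicate 1 at least 0.5 (log2) above the mean of the other ACS libraries, together with CCS replicate 3 at least 0.5 below the mean of the other CCS libraries, was seen in 72 of the 105 lower genes (68.6%), in none of the 28 higher genes and in 358 of all genes tested (2.22%). The achene sums moved with it, at 16178 RPKM in ACS replicate 1 and 8652 RPKM in CCS replicate 3, so that CCS replicate 3 lay below the 8982 to 9608 RPKM of NCS. The narrower lists did not place CCS replicate 3 below NCS. Its cupin and oil body sum of 2602 RPKM lay within the 2262 to 2809 RPKM of NCS. Its late embryogenesis and dehydrin sum of 1118 RPKM lay within the 1041 to 1155 RPKM of NCS. The part of achene content in the 105 was not tested. Without those 2 libraries the group held 131 genes, 26 higher and 105 lower, of which 122 were shared with the group from all libraries. Without AH replicate 3 as well it held 116 genes, 24 higher and 92 lower, with 108 shared. These exclusions were chosen after the data had been seen.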

How the data were processed

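The processed table held gene values in RPKM, which the authors deposited after trimming with cutadapt 1.16.6, alignment with HISAT2 2.1.0 to the F. vesca genome with annotation v4.0.a2, and read count quantitation of transcript features in SeqMonk, using all reads corrected for library total and feature length. Use of strand was not given for these values in the sources used here, so overlapping and antisense genes, like near-identical ones, may share reads. Its log2 fold change columns hold the authors' own DESeq2 comparisons and were not used. Whole reads were recovered for 30994 of the 30995 genes above 0 (tolerance 0.05) and gave depths and read floors.

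RPKM values were tested as log2(RPKM + 0.1) with limma 3.58.1 in R 4.3.3, fitted on the 6 NCS and AH libraries without covariates, for genes with at least 0.5 RPKM in 3 of the 6, and Benjamini-Hochberg adjusted over all 16092 genes. Values after ± are the SE of a log2 fold change unless given as SD. Each other pair of conditions had a fit of its own. On simulated data, 196 of 200 changed genes were called among 16092 and 0 unchanged ones. This was a check that the procedure ran as intended. It cannot give error rates for the measured libraries, in which single libraries deviated over many genes. Lists, tables and figures were made in Python 3.11.15 with pandas 2.3.3, numpy 2.4.6 and matplotlib 3.10.9.

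Members and the 54 lists were chosen with earlier results of these data known, and the wording of the lists was corrected after values had been seen. Named were the 12 described genes that rose most and the 12 that fell most, up to 3 called members per list and direction, the 10 described genes per direction that set NCS most apart from the nearer cold-stored condition, genes with identifiers in the study's text or primers, and an actin control. The markers FvH4_1g11810 and FvH4_5g01170, and FvH4_4g32960, FvH4_6g06090, FvH4_4g28021, FvH4_1g09690, FvH4_3g32960, FvH4_4g23750, FvH4_3g07640, FvH4_6g35830, FvH4_3g16250, FvH4_7g26900 and FvH4_1g12550 fall outside that rule and were named after their values had been seen. Other pseudocounts, filters, scalings, fits and single-library exclusions were tried as alternatives. Labels do not say whether pools came from separate plants, so p-values may measure technical spread.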

Additional observations from a re-analysis of the deposited data

How the results depend on the processing

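None of the 226 named genes that were called changed direction under the alternatives run; medians, summed levels and markers were not recomputed under them. A pseudocount of 1 moved the counts most: 544 genes were then called between NCS and AH (371 higher, 173 lower), 239 list members, and 71 genes called in NCS and not in the cold-stored conditions (8 higher), of which 69 were shared with the 133. With it 10 small heat shock and 6 photosystem genes were lower. Leaving out 1 library at a time gave 998 to 1052 called genes, 628 to 665 higher, 357 to 399 lower, 412 to 431 list members and 94 to 145 genes called in NCS and not in the cold-stored conditions. Median-of-ratios scaling gave 1027 calls (65.9% higher, against 62.8%) and 123 genes called in NCS and not in the cold-stored conditions, 38 of them higher, and voom on recovered reads gave 1139 and 153. Of 230 named genes 226 were called, and 77 lost the call with a pseudocount of 1. The cause of these changes was not tested.

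Replicate numbers were shared by the labels, but same-numbered libraries did not deviate together throughout (r = 0.215, 0.130 and -0.063). With the replicate block 1021 genes were called (640 higher, 381 lower; 1020 shared), 417 list members, and 133 genes called in NCS and not in the cold-stored conditions. The filter leaves genes under 0.5 RPKM untested, and pools of whole fruit do not separate tissues.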
